A study of Mus musculus with 12 samples.

Results

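Chemokine receptors guide leukocytes through tissue, and the transcripts of 9 such receptors were compared among macrophages and monocytes of mouse bone marrow. The genes were Ccr1, Ccr2, Ccr3, Ccr7, Cx3cr1, Cxcr2, Cxcr3, Cxcr4 and the chemerin receptor gene Cmklr1, each matched by symbol to 1 Ensembl identifier among 56953 listed genes. The list was drawn up with earlier results of these data known. These proteins cross the membrane many times and couple to inhibitory G proteins, and binding of a secreted ligand sets off polarisation of the actin cytoskeleton and movement toward its source. In bone marrow, CCR2 is known for releasing Ly6Chi monocytes into blood, CXCR4 for retaining cells near Cxcl12-producing stroma, and CX3CR1 for the survival of Ly6Clo monocytes.

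Polyadenylated RNA was measured in 12 libraries from 8-week-old female C57BL/6J mice, 3 libraries in each of 4 groups. Per the study the eYFP+ macrophages came from Rank cre/+;R26.eYFP fl/+ mice, in which Cre from the Rank locus marks macrophages of embryonic origin with eYFP. Bone marrow gave all 4 groups: eYFP+ (embryonic) and eYFP- (adult-derived) F4/80hi macrophages, and the monocytes with high (Ly6Chi) and low (Ly6Clo) Ly6C. The labels name eYFP for the macrophage groups alone, and which genotype each monocyte library came from is not stated. Cells that escaped recombination would be eYFP-, so that group is defined by the absence of the reporter. How many mice went into a library, and whether equal replicate numbers mean the same mouse, is not stated, so p-values describe the spread between these libraries, which may be technical.

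Depth ranged from 26390927 to 48618187 counts per library. Marker genes separated macrophages from monocytes and the monocyte groups from each other, and the eYFP labels were not checked by them. The summed TPM of 10 macrophage markers was 31076 to 44453 in macrophages and 511 to 1746 in monocytes, and that of 9 Ly6Chi monocyte markers was 14550 to 15259 in Ly6Chi and 1118 to 1247 in Ly6Clo monocytes. Several libraries stood apart. Ly6Clo replicate 2 had counts for 16434 genes against 22254 and 24769 in the other Ly6Clo libraries, and the highest level of the dendritic cell marker Cd209a (2820 TPM, against 562 and 549), while Flt3 (7.08 TPM, against 42.1 and 42.7), Itgax and Clec9a were lowest there. Among the eYFP+ libraries, replicate 1 had the fewest genes with a count (22496, against 26858 and 27424), and results are also given without this pair of libraries. The eYFP- libraries carried more basophil, progenitor and erythroid transcripts than the eYFP+ libraries, eYFP- replicate 2 more neutrophil transcripts (2601 TPM over 12 markers, against 236 and 768), and eYFP- replicate 3 more eosinophil transcripts (1644 TPM over 9 markers, against 554 and 696). In such bulk samples, fewer cells of a type and less RNA per cell cannot be told apart.

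Ccr3 carried the largest difference between the cell types, and its promoter is shown for that reason. RefSeq holds a promoter for 8 of the 9 genes. The 250 bases before the Ccr3 start lie at chr9:124021721-124021970 on the plus strand of GRCm38.p6, which is an earlier build than that of the counts. Capitals mark GAGGAA, the core bound by PU.1, the main myeloid lineage factor, and TCAGCA, which reads TGCTGA on the other strand, the core of sites bound by MAF factors known from macrophages.

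Ccr3: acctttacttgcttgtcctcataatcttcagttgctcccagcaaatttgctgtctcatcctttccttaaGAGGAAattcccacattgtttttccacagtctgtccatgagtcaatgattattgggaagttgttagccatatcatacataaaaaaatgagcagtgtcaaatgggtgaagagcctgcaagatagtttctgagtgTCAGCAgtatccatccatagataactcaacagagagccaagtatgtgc

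The GAGGAA of Ccr3 lies 181 bases and the TCAGCA 48 bases before the annotated start. On either strand, GAGGAA was found in 5 of the 8 receptor promoters (Ccr1, Ccr3, Cmklr1, Cxcr2 and Cxcr3), against 23.1% of 27025 RefSeq promoters of the same length. The letters TGCTGA were found in 2 of 8 (Ccr3 and Cxcr3), against 15.8% of all promoters. The E-box CACGTG was found in 1 of 8 (Cmklr1), against 6.05%. Neither the C/EBP motif TTGCNNAA nor the IRF motif was found in these 8 windows, against 9.55% and 3.04% of all promoters. These are matches of letters and say nothing of binding.

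Macrophages were then compared with monocytes by DESeq2 (Wald test, Benjamini-Hochberg adjustment over all tested genes) in 1 fit over the 12 libraries. Of the 9 receptors, 3 were higher in macrophages (Ccr3, Cxcr3 and Cmklr1), 4 were lower (Ccr1, Ccr2, Cx3cr1 and Cxcr4), and Ccr7 and Cxcr2 did not pass. The 7 called genes were those whose 6 macrophage and 6 monocyte libraries did not overlap. How many of all genes had no such overlap was not counted, so this is a description. Across all genes, 35.4% of those tested passed, 20.3% higher and 15% lower. The median log2 fold change was -2.82 over the 9 receptors (-2.88 without Ccr7, which was at 0 in a whole group) and 0.08 over all genes tested. edgeR's quasi-likelihood test called the same 7 genes, and 35.6% of all genes.

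**Figure D1:**
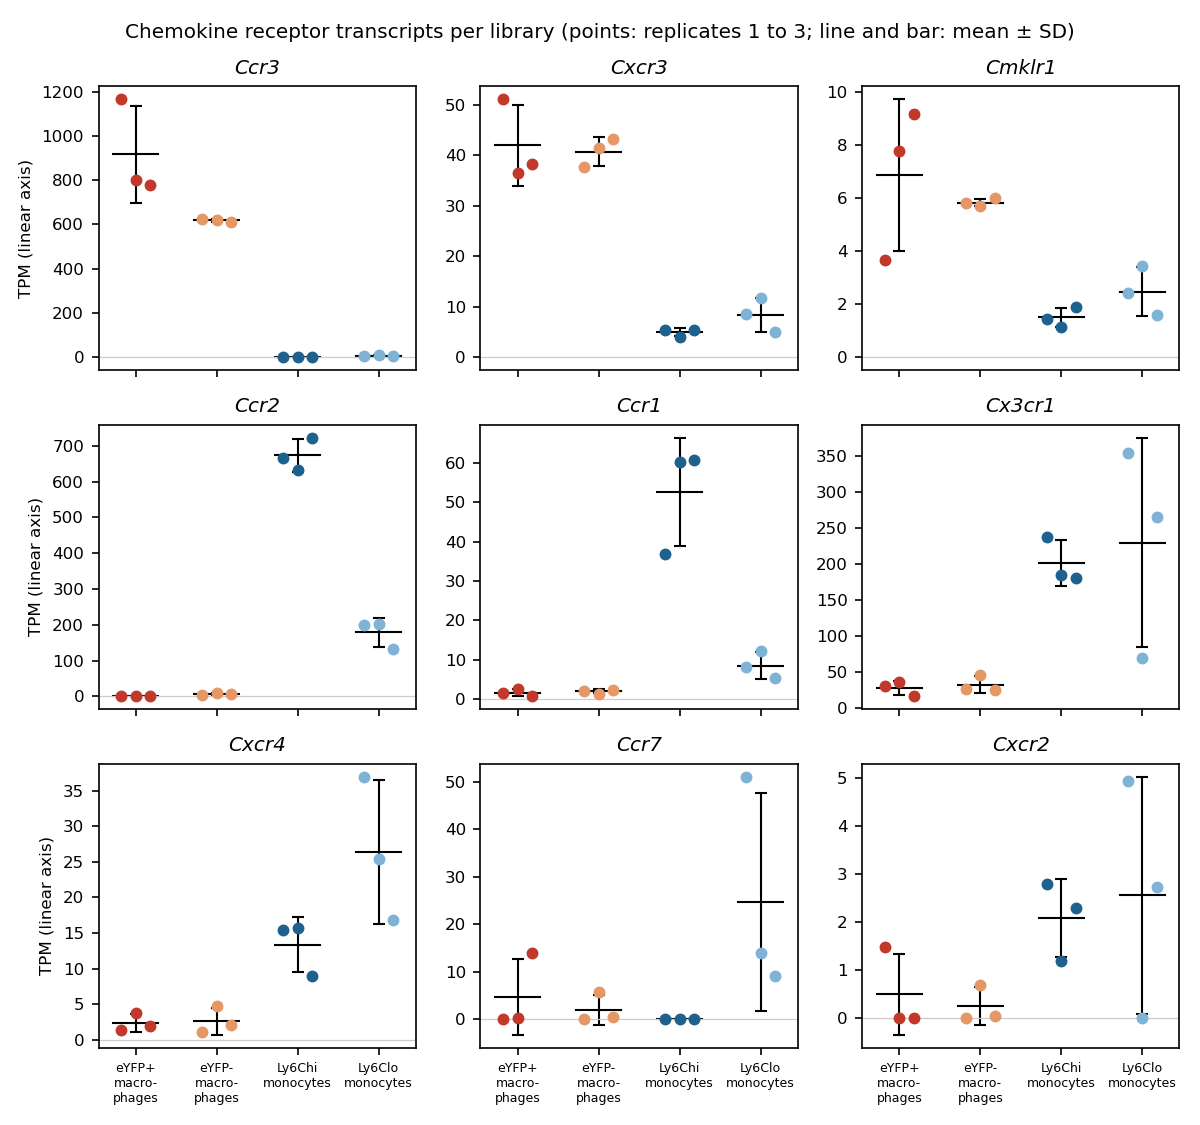
TPM (linear axis, own scale per gene) of the 9 receptors in the 12 libraries, with replicates 1 to 3 from left to right in each of the 4 groups and lines and bars for mean ± SD. Ccr3 (612.8 to 1167 TPM) and Cxcr3 (36.5 to 51.2 TPM) are high in all 6 macrophage libraries, Ccr2 is high in all Ly6Chi libraries (632 to 723 TPM), and the bars of Ccr7, Cxcr2 and Cx3cr1 in Ly6Clo monocytes are wide.

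Ccr3 (ENSMUSG00000035448) encodes the receptor of the eotaxins Ccl11 and Ccl24 and is best known from eosinophils. Its counts after scaling by the size factors of DESeq2 (normalized counts) were 82652, 49831 and 46323 in eYFP+ macrophages and 42717, 35011 and 38513 in eYFP- macrophages. They were 345.5, 592.2 and 430.7 in Ly6Clo and 26.5, 59.5 and 57.1 in Ly6Chi monocytes. Each macrophage library was thus far above each monocyte library, and each Ly6Clo library above each Ly6Chi library. The log2 fold change of macrophages over monocytes was 8.35 ± 0.27 (SE), or 327-fold (DESeq2 adjusted p = 2.59e-201, edgeR adjusted p = 1.79e-08), which placed Ccr3 at rank 8 by p among 22385 tested genes. Without eYFP+ replicate 1 and Ly6Clo replicate 2 it was 8.27. In TPM, which corrects for transcript length, Ccr3 held rank 83 to 146 of all genes in eYFP+ and 197 to 209 in eYFP- macrophages.

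Eosinophil transcripts were set beside Ccr3 in each library. In the eYFP+ libraries, where Ccr3 was 780 to 1167 TPM, the eosinophil peroxidase gene Epx was 0.15 to 0.43 TPM, the major basic protein gene Prg2 was 2.28 to 5.96 TPM, and the IL-5 receptor gene Il5ra was at most 0.014 TPM. In the eYFP- libraries Prg2 was 103, 68.4 and 917 TPM and Epx was 0.58, 4.41 and 54.3 TPM, while Ccr3 was 612.8 to 623.7 TPM. In Ly6Clo monocytes replicate 3 had 519 TPM of Prg2 and 6.32 TPM of Ccr3, against 8.29 TPM of Ccr3 in replicate 2, in which Prg2 was listed at 0. Between cell types, Siglecf, which encodes an eosinophil surface lectin, was 5.53 to 11.03 TPM in macrophages and 0 to 3.56 TPM in monocytes, and Prg2 was at most 0.78 TPM in all monocyte libraries but Ly6Clo replicate 3. Over the 9 eosinophil markers the sum was 606 to 751 TPM in eYFP+ macrophages, 554 to 1644 in eYFP- macrophages, 896 to 2484 in Ly6Clo and 119 to 144 in Ly6Chi monocytes, and most of it was Ear2 in all libraries but eYFP- replicate 3. Of these markers, 1 was higher in macrophages than in monocytes and none lower among 8 tested, and their part in the Ccr3 level was not tested.

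**Figure D2:**
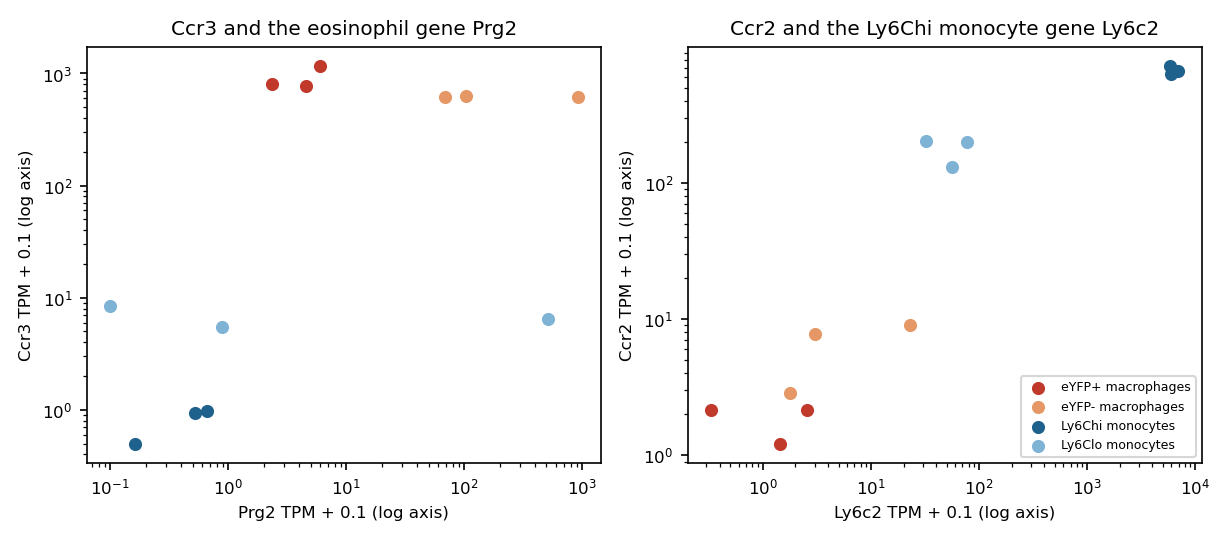
Left, Ccr3 against the eosinophil gene Prg2, and right, Ccr2 against the Ly6Chi monocyte gene Ly6c2, each in TPM + 0.1 on log axes, with 1 point per library. Ccr3 lies between 612.8 and 1167 TPM in macrophages over a range of Prg2 from 2.28 to 917 TPM. Ccr2 is 632 to 723 TPM in the libraries with the highest Ly6c2 (5809 to 6963 TPM), and 1.10 to 8.91 TPM in macrophages.

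Cxcr3 (ENSMUSG00000050232) encodes the receptor of the interferon-induced ligands Cxcl9 and Cxcl10 and is best known from activated T and NK cells. Normalized counts were 1917, 1200 and 1201 in eYFP+ and 1363, 1238 and 1438 in eYFP- macrophages, against 194, 142 and 193 in Ly6Chi and 285, 439 and 181 in Ly6Clo monocytes. The macrophage groups overlapped each other and lay above all monocyte libraries, and the difference in log2 units was 2.59 ± 0.26 (SE, DESeq2 adjusted p = 2.17e-21, edgeR adjusted p = 7.08e-06). The T cell genes Cd3e and Trac were at most 0.59 and 3.27 TPM in macrophages, where Cxcr3 was 36.5 to 51.2 TPM. The NK cell gene Nkg7 was 4.32 to 6.20 TPM in eYFP+ and 38.3 to 78.5 TPM in eYFP- macrophages. In monocytes Nkg7 was 10.2 to 50.1 TPM. Gzma was 0 to 9.09 TPM in eYFP+ and 12.5 to 24.8 TPM in eYFP- macrophages. The sum of 11 T and NK cell markers was 10.1 to 25.5 TPM in eYFP+ and 64.4 to 136 TPM in eYFP- macrophages, while Cxcr3 was 42.0 ± 8.03 and 40.7 ± 2.86 TPM (SD, n = 3 each). In monocytes that sum was 23.9 to 51.2 TPM. Of the 11 markers 7 were higher in macrophages than in monocytes and none lower, and their part in the Cxcr3 difference was not tested.

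Cmklr1 (ENSMUSG00000042190), whose product binds chemerin, was low in all groups but higher in macrophages. Its normalized counts were 229, 426 and 480 in eYFP+ and 351, 284 and 331 in eYFP- macrophages, 87.0, 68.0 and 113 in Ly6Chi, and 136, 216 and 94.5 in Ly6Clo monocytes. The lowest macrophage library (eYFP+ replicate 1) was just above the highest monocyte library (Ly6Clo replicate 2). The log2 fold change was 1.60 ± 0.30 (SE, DESeq2 adjusted p = 5.25e-07, edgeR adjusted p = 0.000836).

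Ccr2 (ENSMUSG00000049103) encodes the receptor of Ccl2 and Ccl7 and was the receptor with the largest excess in monocytes. Normalized counts were 79133, 74943 and 85956 in Ly6Chi and 22364, 25456 and 15711 in Ly6Clo monocytes, against 256, 120 and 213 in eYFP+ and 331, 882 and 844 in eYFP- macrophages. The 4 groups did not overlap in this gene. The log2 fold change of macrophages over monocytes was -6.81 ± 0.30 (SE), or 112-fold lower (DESeq2 adjusted p = 9.48e-111, edgeR adjusted p = 9.17e-08). In TPM, Ccr2 held rank 205 to 247 of all genes in Ly6Chi monocytes and rank 11593 to 14019 in eYFP+ macrophages.

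Ccr1 (ENSMUSG00000025804) encodes a receptor of inflammatory ligands such as Ccl3 and Ccl5. It had 2163, 3534 and 3580 normalized counts in Ly6Chi and 446, 750 and 312 in Ly6Clo monocytes, and 43.7 to 137 in the 6 macrophage libraries. The log2 fold change was -3.62 ± 0.35 (SE; DESeq2 adjusted p = 1.72e-23, edgeR adjusted p = 9.15e-06). Cxcr4 (ENSMUSG00000045382), the receptor of the stromal ligand Cxcl12, had 578, 587 and 334 normalized counts in Ly6Chi and 1300, 999.5 and 631 in Ly6Clo monocytes, and 38.3 to 146 in macrophages. Its difference was -3.07 ± 0.38 (SE, DESeq2 adjusted p = 1.11e-14, edgeR adjusted p = 7.99e-05).

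Cx3cr1 (ENSMUSG00000052336), the receptor of the membrane-bound ligand fractalkine, was present in all libraries. Normalized counts were 2961, 3033 and 1320 in eYFP+ and 2396, 3571 and 2111 in eYFP- macrophages, 22162, 17128 and 16795 in Ly6Chi, and 31005, 6815 and 24750 in Ly6Clo monocytes. The lowest monocyte library, Ly6Clo replicate 2, still lay above the highest macrophage library. The log2 fold change of macrophages over monocytes was -2.95 ± 0.37 (SE, DESeq2 adjusted p = 2.89e-14, edgeR adjusted p = 9.08e-05), and -3.28 without eYFP+ replicate 1 and Ly6Clo replicate 2.

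Ccr7 (ENSMUSG00000037944), which directs mature dendritic cells to Ccl19 and Ccl21 in lymph nodes, was found in some libraries alone. Its normalized counts were 1970, 602 and 376 in Ly6Clo monocytes and 0 in each Ly6Chi library, where 0 counts allow up to 3 over the group. They were 0, 5.72 and 500 in eYFP+ and 0, 193 and 14.2 in eYFP- macrophages. In each macrophage group 1 library thus held nearly all of it, eYFP+ replicate 3 and eYFP- replicate 2. The dendritic cell gene Fscn1 was 2.21 TPM in that eYFP+ library, 4.10 TPM in that eYFP- library and 7.94 TPM in Ly6Clo replicate 1, the library with most Ccr7 (51.1 TPM), but also 2.16 TPM in eYFP+ replicate 2 and listed at 0 in Ly6Clo replicate 2. The 9 dendritic cell markers summed to 26.1 to 40.2 TPM in eYFP+ and 36.4 to 66.7 TPM in eYFP- macrophages, and their part in the Ccr7 level was not tested. The mean over macrophages (119) was lower than over monocytes (491), yet the fitted log2 fold change was 2.90 ± 2.03 (SE, DESeq2 adjusted p = 0.285), since the fit averages group means on a log scale and the Ly6Chi mean is 0. Without eYFP+ replicate 2 this fitted value passed (DESeq2 adjusted p = 3.99e-05), so it is not read as a direction.

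Cxcr2 (ENSMUSG00000026180), the neutrophil receptor of Cxcl1 and Cxcl2, was at or near 0 in most macrophage libraries. Normalized counts were 96.8, 0 and 0 in eYFP+ and 0, 36.4 and 1.67 in eYFP- macrophages, against 176, 74.1 and 145 in Ly6Chi and 294, 0 and 173 in Ly6Clo monocytes. It was thus detected in all Ly6Chi libraries and missing from 4 libraries of the other groups, Ly6Clo replicate 2 among them. The log2 fold change was -2.82 ± 1.92 (SE, DESeq2 adjusted p = 0.268, edgeR adjusted p = 0.157). Leaving out eYFP+ replicate 1, which holds all Cxcr2 counts of its group, brought the log2 fold change to -6.66 and the DESeq2 adjusted p to 0.00149. Of 12 neutrophil markers 10 were lower in macrophages (15% of all genes were), with sums of 15950 to 24019 TPM in Ly6Chi monocytes, 6865 to 16290 TPM in Ly6Clo monocytes and 164 to 2601 TPM in macrophages. Of these, S100a8 alone was 7320 to 11061 TPM in Ly6Chi monocytes. Ly6g was 2.31 to 4.17 TPM in Ly6Chi and 19.8 to 43.2 TPM in Ly6Clo monocytes, and at most 1.65 TPM in macrophages. The part of these markers in the Cxcr2 level was not tested.

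**Figure D3:**
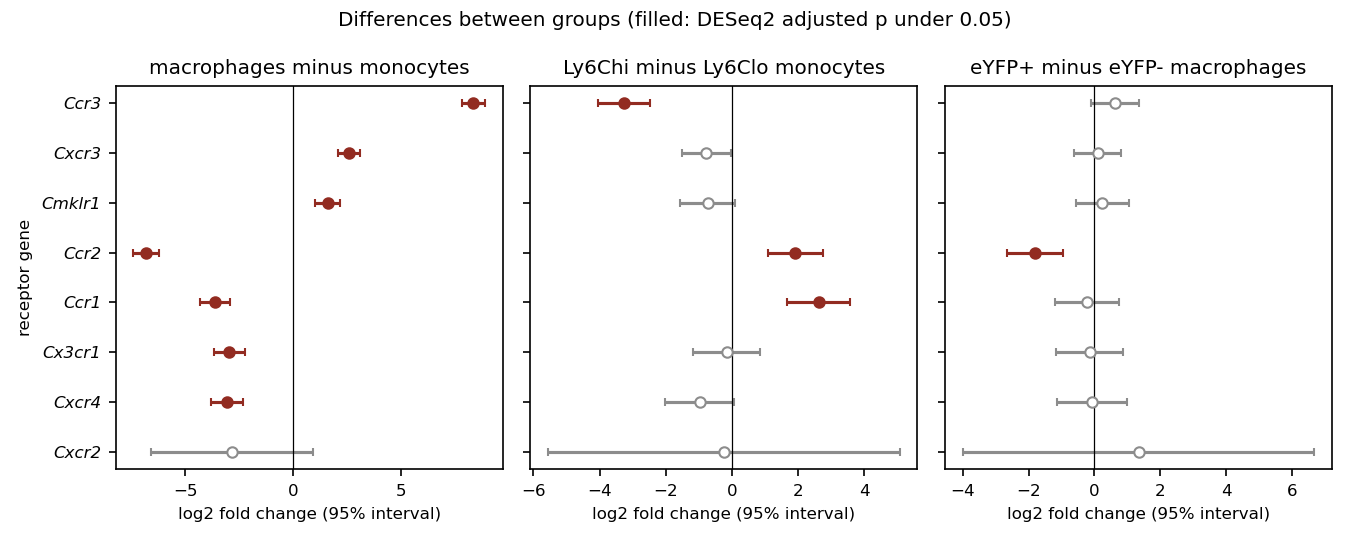
Log2 fold changes with 95% intervals from the DESeq2 fit for 8 receptors in macrophages minus monocytes, Ly6Chi minus Ly6Clo monocytes and eYFP+ minus eYFP- macrophages, with filled points at an adjusted p under 0.05. Ccr3 (8.35) and Ccr2 (-6.81) lie farthest apart between cell types, and Ccr2 (-1.80) is the filled point between macrophage groups. Ccr7 is left out because its counts are 0 in Ly6Chi monocytes.

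The receptors were also compared between each macrophage group and each monocyte group. These comparisons share libraries, so their values are given side by side. Against Ly6Chi monocytes, 8 receptors passed for eYFP- macrophages (27.4% of all tested genes did) and 8 for eYFP+ macrophages (24.5% of all). Against Ly6Clo monocytes, 7 passed for eYFP- macrophages (26.3% of all) and 7 for eYFP+ macrophages (28% of all). In each comparison Ccr3, Cxcr3 and Cmklr1 were higher and Ccr1, Ccr2, Cx3cr1 and Cxcr4 lower in macrophages.

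The distance was larger to Ly6Chi than to Ly6Clo monocytes for Ccr3, with log2 fold changes of 10.29 and 7.03 in eYFP+ and 9.67 and 6.41 in eYFP- macrophages. It was likewise for Ccr2, with -8.67 and -6.75 in eYFP+ and -6.87 and -4.95 in eYFP- macrophages. The tests of these steps are those between the monocyte groups, given next. The eighth receptor against Ly6Chi monocytes was Ccr7, higher in macrophages (DESeq2 adjusted p = 0.00742 for eYFP+ and 0.0230 for eYFP-). Its group means were at least 145-fold and at least 59.5-fold higher than 3 counts over the Ly6Chi group, but edgeR's adjusted p was 0.0793 and 0.129. Without eYFP+ replicate 3 the first ratio was 2.47, and without eYFP- replicate 2 the second was 6.14. The eYFP+ call was lost without eYFP+ replicate 3 (DESeq2 adjusted p = 0.404). The eYFP- call was lost without eYFP- replicate 2 (adjusted p = 0.288) or replicate 3 (0.0621), or any 1 of the Ly6Chi libraries (0.0557 to 0.0571). Against Ly6Clo monocytes Ccr7 did not pass in eYFP+ macrophages, and it did without eYFP+ replicate 3 (DESeq2 adjusted p = 0.0134). Cxcr2 did not pass in eYFP+ macrophages against either monocyte group, but its call depended on single libraries. With 1 library left out its log2 fold change fell as low as -9.73 against Ly6Chi and -9.97 against Ly6Clo monocytes. The excess of Cmklr1 over Ly6Clo monocytes was 1.35 ± 0.42 (SE) in eYFP+ and 1.12 ± 0.42 in eYFP- macrophages, in log2 units (DESeq2 adjusted p = 0.00613 and 0.0306, edgeR adjusted p = 0.0239 and 0.0517). After correction for GC content it was 1.04 and 0.67, and neither passed (DESeq2 adjusted p = 0.0894 and 0.320). The eYFP+ value was also lost without eYFP+ replicate 3 (DESeq2 adjusted p = 0.0676). The eYFP- value was lost without any 1 eYFP- library, Ly6Clo replicate 1 or 3, or Ly6Chi replicate 1 (adjusted p = 0.0501 to 0.142).

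Between Ly6Chi and Ly6Clo monocytes 4 of the 9 receptors differed, and 8.62% of all tested genes did. Ccr1 and Ccr2 were higher in Ly6Chi monocytes (3.66% of all genes were), and Ccr3 and Ccr7 were lower (4.97% of all). edgeR called 3 of the 9, without Ccr7, and 4.32% of all genes. For Ccr1 the log2 fold change was 2.62 ± 0.49 (SE), or 6.16-fold (DESeq2 adjusted p = 6.09e-06, edgeR adjusted p = 0.00715). For Ccr2 it was 1.92 ± 0.42 (SE), or 3.78-fold (DESeq2 adjusted p = 0.000236, edgeR adjusted p = 0.0135). The Ccr3 level of Ly6Chi monocytes was lower by -3.26 ± 0.40 (SE, DESeq2 adjusted p = 6.79e-14, edgeR adjusted p = 0.000442), from a low level in both groups (0.39 to 0.88 against 5.42 to 8.29 TPM). Macrophage markers differed in the same direction between the groups: 7 of 10 were lower in Ly6Chi monocytes, with sums of 511 to 575 TPM against 726 to 1746 TPM. Eosinophil markers did too: 4 of 8 tested were lower and none higher, with sums over 9 markers of 119 to 144 against 896 to 2484 TPM, most of it Ear2. Among the Ly6Clo libraries, replicate 2 had the most Ccr3 (8.29 TPM) and the lowest sums of both lists (726 and 896 TPM). The part of both lists in the Ccr3 difference was not tested.

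Ccr7 was at least 848-fold higher in the mean of Ly6Clo monocytes than 3 counts over the Ly6Chi group would give (DESeq2 adjusted p = 0.00143), but it missed the threshold of edgeR's test (adjusted p = 0.102). Without Ly6Clo replicate 1 this bound was 422-fold. Of 9 dendritic cell markers 7 were lower in Ly6Chi monocytes, with sums of 112 to 125 TPM against 658 to 2853 TPM. Most of each sum was Cd209a (88.9 to 91.1 against 549 to 2820 TPM), and the markers' part in the Ccr7 difference was not tested. Without Ly6Clo replicate 2 and eYFP+ replicate 1, Ccr1, Ccr2 and Ccr3 kept their calls with log2 fold changes of 3.03, 2.07 and -3.03, and Ccr7 received no adjusted p.

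Cx3cr1 did not pass between the monocyte groups, with a log2 fold change of -0.16 and a 95% interval from -1.18 to 0.87 (DESeq2 adjusted p = 0.913). Here 1 library set the spread: Ly6Clo replicates 1 and 3 lay above all Ly6Chi libraries and replicate 2 below them, and without that library the change was -0.58 (DESeq2 adjusted p = 0.465). Cxcr4 was higher in each Ly6Clo than in each Ly6Chi library, by 0.97 ± 0.53 (SE) log2 units, without passing (DESeq2 adjusted p = 0.290, edgeR adjusted p = 0.351). Cxcr3 (log2 fold change -0.77 ± 0.38, DESeq2 adjusted p = 0.212) and Cmklr1 (-0.73 ± 0.42, adjusted p = 0.325) overlapped between the groups. Cxcr3 passed without Ly6Clo replicate 3 (-1.04, DESeq2 adjusted p = 0.0491).

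The balance of Ccr2 and Cx3cr1, which are commonly used together to tell monocyte subsets apart, was taken as the ratio of their TPM values. It was 2.80, 3.43 and 4.01 in Ly6Chi monocytes, and 0.57, 2.93 and 0.50 in Ly6Clo monocytes. Ly6Clo replicate 2 thus had a ratio within the Ly6Chi range. In macrophages the ratio was 0.068, 0.031 and 0.127 (eYFP+) and 0.108, 0.194 and 0.313 (eYFP-), below each monocyte library, with an overlap between the macrophage groups.

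Between eYFP+ and eYFP- macrophages 1 of the 9 receptors differed, and 2.04% of all tested genes did, 0.153% being higher and 1.88% lower in eYFP+. This was Ccr2, with a log2 fold change of -1.80 ± 0.43 (SE), or 3.49-fold lower in eYFP+ macrophages (DESeq2 adjusted p = 0.00270). The 95% interval ran from -2.64 to -0.97, and the 3 eYFP+ libraries (120 to 256 normalized counts) lay below the 3 eYFP- libraries (331 to 882). The call depended on the test, with an edgeR adjusted p of 0.0809 (unadjusted p = 0.000537; edgeR called 0 of the 9 receptors, 1 at an unadjusted p under 0.05, and 0.334% of all genes), and on eYFP- replicate 3, without which the DESeq2 adjusted p was 0.0749. With eYFP+ replicate 1 and Ly6Clo replicate 2 left out it was -2.05 (DESeq2 adjusted p = 1.47e-05).

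Because Ly6Chi monocytes hold so much Ccr2, its level in macrophages was set beside transcripts of those monocytes, as a percentage of the Ly6Chi mean. Ccr2 was 0.320%, 0.150% and 0.266% of that mean in the eYFP+ libraries, and 0.414%, 1.10% and 1.05% in the eYFP- libraries. The median of 9 Ly6Chi monocyte markers was 0.102%, 0.197% and 0.089% in eYFP+ and 0.067%, 0.377% and 0.157% in eYFP- libraries, so that Ccr2 was above the median in all but eYFP+ replicate 2. Single markers of this list ranged widely, from 0.00387% for Ly6c2 in eYFP+ replicate 1 to 178% for Mgst1 in the same library. In eYFP- replicate 3 Ccr2 was at 1.05% while Ly6c2 was at 0.043%, Fn1 at 0.00723% and Chil3 at 0.028%. In eYFP- replicate 2, Ly6c2, Fn1 and Chil3 were at 0.307%, 0.354% and 1.64%. Among marker lists, 1 of 8 tested Ly6Chi monocyte, 2 of 10 Ly6Clo monocyte, 2 of 11 tested T and NK cell, 2 of 9 tested erythroid, 1 of 5 tested megakaryocyte, 3 of 12 neutrophil, 3 of 8 stem and progenitor cell, 3 of 9 dendritic cell and 2 of 6 tested basophil and mast cell markers were lower in eYFP+ macrophages and none was higher (1.88% and 0.153% of all genes). Of 10 macrophage, 8 tested eosinophil and 7 tested B cell markers none passed. The part of other cell types in the Ccr2 difference was not tested.

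The other 8 receptors did not pass between the macrophage groups, with a DESeq2 adjusted p of 0.745 for Ccr3 and of 1 for the rest. Ccr3 was higher in each eYFP+ library than in each eYFP- library (780 to 1167 against 613 to 624 TPM), by 0.62 ± 0.37 (SE) log2 units, with a 95% interval from -0.11 to 1.36. The interval of Cxcr3 was -0.63 to 0.82, that of Cx3cr1 -1.17 to 0.88, that of Ccr1 -1.21 to 0.75, that of Cxcr4 -1.12 to 1.001 and that of Cmklr1 -0.57 to 1.04, in log2 units. For Ccr7 (-4.10 to 6.68) and Cxcr2 (-3.99 to 6.68) the intervals were too wide to bound a difference.

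To describe each library by its receptor repertoire, the TPM of the 9 receptors and 17 related ones were summed and each receptor was given as a share of that sum. Ccr3 was the leading receptor in all 6 macrophage libraries, at 84.6% to 86.3% in eYFP+ and 76.0% to 79.4% in eYFP- macrophages. Ccr2 led in Ly6Chi monocytes with 67.6% to 72.0%, followed by Cx3cr1 with 17.9% to 24.1%. Ly6Clo monocytes were divided: Cx3cr1 led in replicates 1 and 3 with 49.6% and 54.5%, and Ccr2 led in replicate 2 with 53.6%. The sum itself was 919 to 1353 TPM in eYFP+ macrophages, 772 to 814 in eYFP- macrophages, 918 to 1004 in Ly6Chi and 380 to 715 in Ly6Clo monocytes. Shares of a sum move together, so the shares of the other receptors fall where Ccr3 rises.

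**Figure D4:**
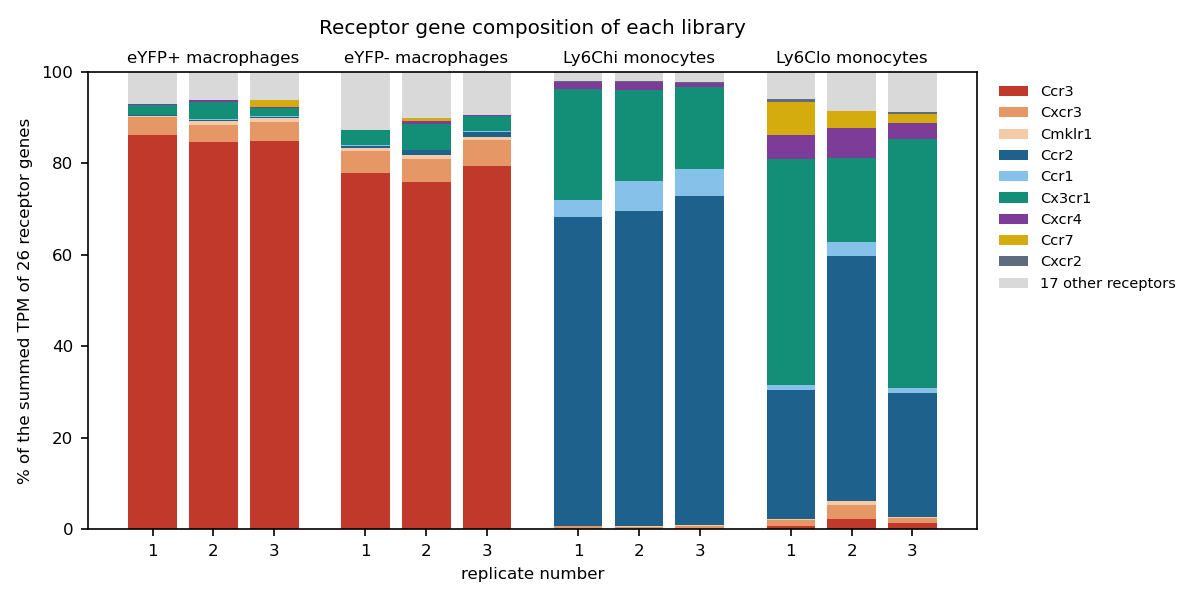
Share of each receptor gene in the summed TPM of 26 receptor genes (vertical axis, percent) for the 12 libraries, grouped by cell population and numbered by replicate. Ccr3 fills 76.0% to 86.3% of each macrophage library, Ccr2 67.6% to 72.0% of each Ly6Chi library, and Ly6Clo replicate 2 differs from the other Ly6Clo libraries.

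The levels of each receptor were ordered over the 4 groups, which gave 27 steps between neighbouring groups, and 12 of these passed DESeq2's test while 15 did not. The order was set by the same group means that were tested, and no share over all genes was counted. These counts are thus a description. All 3 steps passed for Ccr2 alone, in the order Ly6Chi monocytes, Ly6Clo monocytes, eYFP- macrophages and eYFP+ macrophages, with the last step not passing edgeR's test. For Ccr1 the order was the same, and the step between the macrophage groups did not pass. For Ccr3 the order ran from eYFP+ and eYFP- macrophages, the step between which did not pass the test although their libraries did not overlap, to Ly6Clo and then Ly6Chi monocytes. For Cx3cr1, Cxcr3, Cxcr4 and Cmklr1, the step between cell types passed and neither step within a cell type did, the Cmklr1 step missing edgeR's threshold (adjusted p = 0.0517). For Cxcr2 no step passed, and for Ccr7 the step from eYFP- macrophages to Ly6Chi monocytes passed with DESeq2.

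Ccr1, Ccr3 and Ccr2 belong to a cluster of receptor genes on mouse chromosome 9, and neighbours in it moved in opposite directions. In the reference annotation 4 of its genes lie in the order Ccr1, Ccr1l1, Ccr3 and Ccr2. In macrophages against monocytes, Ccr1l1 and Ccr3 were higher and Ccr1 and Ccr2 on either side of them were lower. Ccr1l1, a copy related to Ccr1, was 25.7 to 48.3 TPM in eYFP+ and 18.01 to 37.4 TPM in eYFP- macrophages, listed at 0 in Ly6Chi monocytes and at most 0.84 TPM in Ly6Clo monocytes (DESeq2 adjusted p = 4.09e-28, edgeR adjusted p = 2.99e-05). Genes of this cluster are similar in sequence, and the authors counted pairs assigned to 1 gene alone, so their levels are uncertain to that extent.

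Related receptors, ligands and signalling genes were listed to set the 9 receptors in their pathway. Of 17 other chemokine and chemoattractant-like receptors, 6 were higher and 1 lower in macrophages among 14 tested, where 20.3% of all tested genes were higher and 15% lower. Besides Ccr1l1, these included Cxcr6, the receptor of the membrane-bound ligand Cxcl16, at 1.63 to 6.42 TPM in macrophages and at most 0.76 TPM in monocytes (DESeq2 adjusted p = 9.28e-07, edgeR adjusted p = 0.00464). The atypical receptor gene Ackr1, which binds chemokines without signalling and is known from erythroid cells, was 17.1 to 37.9 TPM in eYFP-, 3.85 to 12.8 TPM in eYFP+ macrophages and 0.36 to 12.1 TPM in monocytes (DESeq2 adjusted p = 0.000209, edgeR adjusted p = 0.0116). All 9 erythroid markers were higher in macrophages too, with sums of 8380 to 32651 TPM against 340 to 1317 TPM, and their part in the Ackr1 difference was not tested. Between macrophage groups 1 of 13 passed (2.04% of all genes), Xcr1, which is known from cross-presenting dendritic cells, at 0.082 to 0.29 TPM in eYFP+ and 2.40 to 7.05 TPM in eYFP- macrophages (DESeq2 adjusted p = 0.00152, edgeR adjusted p = 0.201). Between monocyte groups 2 of 13 were higher and 4 lower in Ly6Chi (3.66% and 4.97% of all genes). Of these Ackr4, Ccr9, Xcr1 and Ccr1l1 were at most 1.498 TPM in all monocyte libraries, and Ackr1 was 0.36 to 1.33 TPM in Ly6Chi and 0.42 to 12.1 TPM in Ly6Clo monocytes.

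Of 24 ligands of the 9 receptors, 18 were tested, and 5 were higher and 3 lower in macrophages than in monocytes (20.3% and 15% of all genes). The CCR2 and CCR1 ligand gene Ccl8 was 59.1 to 244 TPM in macrophages, listed at 0 in Ly6Chi monocytes and 3.002 to 13.4 TPM in Ly6Clo monocytes (DESeq2 adjusted p = 2.46e-28, edgeR adjusted p = 8.04e-06). The CCR2 ligand gene Ccl12 was higher by 3.37 ± 0.57 (SE) log2 units (DESeq2 adjusted p = 3.22e-08), and Cxcl9, a CXCR3 ligand gene, 2.13 ± 0.54 higher (adjusted p = 0.000419). The CCR1 ligand genes Ccl9, Ccl6 and Ccl3 were lower in macrophages, by -5.55 ± 0.26, -2.11 ± 0.26 and -1.67 ± 0.44 (SE), where DESeq2's adjusted p reached 0.000678 and edgeR's 0.0112 at the highest. Between macrophage groups Ccl5, a ligand of CCR1 and CCR3, was the 1 ligand of 18 that passed (2.04% of all genes), at 34.2 to 50.9 TPM in eYFP+ and 75.8 to 121 TPM in eYFP- macrophages (DESeq2 adjusted p = 0.00888, edgeR adjusted p = 0.0983).

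Between monocyte groups 2 of 18 ligands were higher and 5 lower in Ly6Chi (3.66% and 4.97% of all genes). The CXCR3 ligand gene Cxcl10 was higher by 1.97 ± 0.40 (SE) log2 units (DESeq2 adjusted p = 4.01e-05, edgeR adjusted p = 0.0121). Ccl5 was lower by -2.79 ± 0.32 (SE), at 27.7 to 31.9 against 133 to 253 TPM (DESeq2 adjusted p = 1.55e-15, edgeR adjusted p = 0.000333). Ccl8 and Ccl12 were lower too, at 0 to 0.48 against 3.002 to 13.4 TPM (DESeq2 adjusted p of at most 2.66e-08, edgeR adjusted p of at most 0.00868).

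Of 28 genes for coupling and chemotactic signalling, 27 were tested, and 3 were higher and 16 lower in macrophages than in monocytes (20.3% and 15% of all genes). The median log2 fold change was -0.77, against 0.08 over all genes. Rgs1, which shortens signalling of inhibitory G proteins, was 48.4 to 168 TPM in macrophages, 5.90 to 11.2 TPM in Ly6Clo and 0.32 to 0.61 TPM in Ly6Chi monocytes (log2 fold change 5.71 ± 0.31, DESeq2 adjusted p = 2.66e-71, edgeR adjusted p = 2.69e-07). The genes with the lowest p among the lower ones were Grk5 and Grk6, kinases that desensitise receptors, and Rgs14, with log2 fold changes of -3.99 ± 0.35, -2.00 ± 0.19 and -3.17 ± 0.30 (DESeq2 adjusted p of at most 9.03e-24, edgeR adjusted p of at most 7.91e-06). Arrb2, which encodes an arrestin, was higher in macrophages (23.2 to 128 against 37.5 to 50.1 TPM, DESeq2 adjusted p = 0.0108, edgeR adjusted p = 0.0252). Between monocyte groups 4 were higher and 2 lower in Ly6Chi (3.66% and 4.97% of all genes), among them Pik3r6, a subunit of the PI3 kinase that G proteins activate, at 106 to 134 against 5.12 to 28.8 TPM (DESeq2 adjusted p = 9.41e-06, edgeR adjusted p = 0.0121). Between macrophage groups Rgs18, known from platelets and their precursors, was the 1 gene that passed (2.04% of all genes), at 0.76 to 1.51 TPM in eYFP+ and 10.3 to 17.6 TPM in eYFP- macrophages (DESeq2 adjusted p = 5.33e-07, edgeR adjusted p = 0.0334). Of 5 tested megakaryocyte markers 1 was lower in eYFP+ macrophages, and the part of such cells in the Rgs18 difference was not tested.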

How the data were processed

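RNA of sorted cells per library was reverse transcribed from its poly(A) tail, amplified by PCR without molecular identifiers and sequenced from both ends. Per the study's methods, the authors aligned trimmed reads to GRCm39 (Ensembl annotation) and deposited counts of read pairs per gene from featureCounts, TPM values scaled to transcript length, and variance-stabilised counts on a log2 scale. Strand use is not stated. The test here was DESeq2 1.42.0 under R 4.3.3 (median-of-ratios size factors, 1 fit over 12 libraries with group as factor, Wald contrasts, independent filtering, adjusted p under 0.05), and checked with edgeR 4.0.16 and limma 3.58.1. Fold changes are unshrunken. Counts of 26390927 to 48618187 per library set the counting precision, and reads are not independent molecules. Symbols came from GENCODE M21, and promoters from RefSeq (GRCm38.p6).

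The receptors, gene lists and tests were chosen with earlier results of these data known. All receptors are named. Of each pathway list, genes with the smallest adjusted p among those called were named, up to 4 between macrophage groups and 3 per direction elsewhere, and not all are given. For each receptor, the 3 genes with the smallest root mean square difference of centred variance-stabilised values were named (10769 genes with a mean of at least 50 normalized counts). Marker lists were written by hand. Alternatives were other tests, scalings, filters, pseudocounts of 1 and 0.1, a GC correction, a replicate block and leaving out libraries. The median without Ccr7 and the Ccr7 bounds with a library left out were added after seeing the data. Some genes of these lists are counted but not reported here by name.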

Additional observations from a re-analysis of the deposited data

How the results depend on the processing

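Of 42 receptor differences called over the 7 comparisons, 36 kept their direction and call in every alternative run. The other 6 were Ccr2 between macrophage groups, Ccr7 between monocyte groups and against Ly6Chi monocytes in each macrophage group, and Cmklr1 against Ly6Clo monocytes in each macrophage group; the cause was not tested. Between macrophage groups, 0 receptors passed with edgeR (1 at an unadjusted p under 0.05), edgeR with the replicate block, and limma on log2(TPM + 1), on log2(TPM + 0.1) and on genes with a TPM of at least 1 in 3 libraries, where Ccr2 had adjusted p of 0.0809, 0.222, 0.179, 0.148 and 0.0727. Leaving out each library in turn gave 0 (without eYFP- replicate 3) to 1. Total-count scaling shifted all log2 fold changes by -0.11 between macrophage groups.

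Directions changed for values that were not called in the main test. In eYFP+ minus eYFP- macrophages, Cxcr2 became -1.49 with the replicate block (also with a count minimum), -0.75 with edgeR and the block and -6.37 without eYFP+ replicate 1 and Ly6Clo replicate 2, Cxcr3 -0.019 with total-count scaling and -0.17 without those libraries, and Cxcr4 0.00565 with limma on log2(TPM + 0.1) and 0.17 without them. In Ly6Chi minus Ly6Clo monocytes, Cx3cr1 became 0.089, 0.092 and 0.089 in the limma fits, and Cxcr2 0.096, 0.87 and 0.096 in these and 0.28, 0.28 and 0.18 with the block. In macrophages minus monocytes, Ccr7 became -0.94, -1.02 and -0.94 in the limma fits. Leave-one-out ranges that crossed 0 were -0.61 to 0.12 (Ccr1), -4.59 to 4.56 (Ccr7), -0.33 to 0.15 (Cx3cr1), -6.37 to 5.26 (Cxcr2), -0.16 to 0.21 (Cxcr3) and -0.53 to 0.58 (Cxcr4) between macrophage groups, -0.58 to 0.24 (Cx3cr1) and -0.83 to 0.61 (Cxcr2) between monocyte groups, and -0.039 to 10.42 (Ccr7) between cell types. Of the 27 genes most like a receptor, 17 were also chosen on log2(TPM + 1) and 12 without eYFP+ replicate 1 and Ly6Clo replicate 2.

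Replicate numbers came from the sample titles. The correlation of deviations of same-numbered libraries over 19228 genes was 0.291, 0.147 and 0.0449 in macrophages and 0.0942, 0.0362 and 0.0260 in monocytes. All were positive, and these values do not settle whether same-numbered libraries are paired. With the replicate block 1 receptor passed between macrophage groups (Ccr2, -1.78, DESeq2 adjusted p = 0.00766), 4 between monocyte groups and 7 between cell types, and against single monocyte groups Ccr7 (eYFP- against Ly6Chi, adjusted p = 0.0980) and Cmklr1 (eYFP- against Ly6Clo, adjusted p = 0.0704) were lost. The block changed no other call of the 42. Over all genes, 439 passed between macrophage groups in DESeq2, 64 in edgeR, 1155 with the block (444 with the block and at least 10 counts in 3 libraries), 24 in edgeR with the block, 686 when the 6 macrophage libraries were fitted alone, 220 and 109 in limma with pseudocounts of 1 and 0.1, 989 without eYFP+ replicate 1 and Ly6Clo replicate 2, and 227 (without eYFP- replicate 3) to 865 (without Ly6Clo replicate 2) when 1 library was left out. Between monocyte groups 1860 passed, against 829 in edgeR, 521 in edgeR with the block, 1191 in the 6 monocyte libraries alone, 969, 874 and 1219 in the limma fits, 1219 without Ly6Chi replicate 1 and 1205 without Ly6Chi replicate 2. Between eYFP- macrophages and Ly6Chi monocytes 5682 genes passed, against 3544 in edgeR with the block and 8601 without eYFP+ replicate 1 and Ly6Clo replicate 2. Against Ly6Clo monocytes, 5665 genes passed for eYFP- (3323 in edgeR with the block) and 5804 for eYFP+ macrophages (3559, and 3680 in the 6 libraries alone). Cxcr2 had 0 counts in 4 libraries, among them the deepest (48618187 counts).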

Other observations

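Genes whose profile over the 12 libraries was most like that of each receptor were listed from the deposited variance-stabilised values, centred per gene. The distance is the root mean square difference over 12 libraries, in log2 units. The genes share libraries and depth with the receptor, so the distance is a description.

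Closest to Ccr3 were Fcna (0.25), which encodes a ficolin, the iron exporter gene Slc40a1 (0.47) and Cd5l (0.55), all abundant in macrophages: Fcna had a mean of 7948 TPM in eYFP+ and 6677 TPM in eYFP- macrophages, 53.9 TPM in Ly6Clo and 7.55 TPM in Ly6Chi monocytes. Closest to Cxcr3 were Xlr (0.25), Aif1 (0.25) and Nmrk1 (0.26). Aif1, which encodes the macrophage protein IBA1, had 1079 and 955 TPM in eYFP+ and eYFP- macrophages and 130 and 165 TPM in Ly6Chi and Ly6Clo monocytes. Closest to Cmklr1 were Txnrd1 (0.22), Pex13 (0.29) and Tmem80 (0.29).

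Among the receptors higher in monocytes, Ccr2 was followed most closely by S100a6 (0.32), the coagulation factor gene F10 (0.50) and Mcemp1 (0.67). S100a6 ran from 1627 TPM in Ly6Chi through 400.2 TPM in Ly6Clo monocytes to 8.75 TPM in eYFP- and 2.66 TPM in eYFP+ macrophages, the same order of groups as Ccr2. Closest to Ccr1 were Bst1 (0.35), Nrg1 (0.54) and Myo1h (0.60), to Cx3cr1 Gpr35 (0.37), Ap1s2 (0.42) and Myo1f (0.46), and to Cxcr4 Mef2c (0.30), Klf2 (0.40) and Bcl6 (0.41), which encode transcription factors. The sparse receptors had no close match: the nearest genes were Xirp1 (1.11), Atp6v0d2 (1.336) and Pdcd1lg2 (1.35) for Ccr7, and Carmil1 (0.75), Il1rl2 (0.80) and Abcb1a (0.82) for Cxcr2.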
